A study of Mus musculus with 12 samples.

Results

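The genes described here are the mouse zinc finger genes named Zfp9 plus any 2 further digits, Zfp930 to Zfp995 in this table. All rows with such a name were taken, which gave 63 genes of the 26742 in the table of read counts. RNA had been sequenced from mouse embryonic stem (ES) cells labelled male, of the 129 or the B6J background, grown with serum and LIF, the leukaemia inhibitory factor that sustains them. The cultures received daily additions of DMSO, a solvent, or of PD 0325901, an inhibitor of the kinase MEK, at 1 µM, up to day 5. Each background was thus sampled in both media, giving 4 groups of 3 libraries. Each background is given by its genotype alone, without a clone, so background and cell line cannot be told apart. Separate cultures are not stated for the 3 libraries of a group, and the p-values therefore reflect the spread among these libraries, possibly a technical one.

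Most proteins of this kind bind DNA through a row of C2H2 zinc fingers, short loops held by a zinc ion, and many also carry a KRAB domain. The KRAB domain recruits the corepressor TRIM28 (KAP1), which brings the histone methyltransferase SETDB1 and heterochromatin proteins to the bound DNA. In ES cells this machinery keeps many endogenous retroviruses and imprinted regions silent, and rodents have expanded the family into gene clusters on several chromosomes. Among the genes studied here, Zfp932 is known as a repressor of certain endogenous retroviruses, Zfp961 has been reported to bind a retroviral primer binding site, and Zfp982 has been reported to act on pluripotency genes in ES cells.

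The library totals ran from 62634533 to 96341637 counts. In each group 1 library stood apart from the other two by a chi-square test of the counts: replicate 1 of 129 with DMSO, of 129 with the inhibitor and of B6J with DMSO, and replicate 3 of B6J with the inhibitor. Results are therefore also given without these 4 libraries. Of 3 targets of the MEK pathway used to check the treatment, all (Egr1, Dusp6 and Spry4) fell in both backgrounds; Egr1 was at 261 ± 63.0 and 8.19 ± 1.87 CPM (counts per library total, on a TMM-adjusted scale; SD, n = 3) in 129 with DMSO and with the inhibitor. ES cell markers were present in every library, with a summed level of 2331 to 4257 CPM over 7 genes and none at 0. Markers of fibroblasts, the usual feeder cells, were also present: their 20 genes summed to 5355 to 11040 CPM in 129 with DMSO, 10300 to 14630 in 129 with the inhibitor, 7614 to 8292 in B6J with DMSO and 10610 to 15970 in B6J with the inhibitor, with none at 0. Of these markers 13 rose and 1 fell in 129, and 11 rose in B6J. Pdgfra is also on the list of primitive endoderm markers used further on, so these lists are not separate. The 11040 CPM came from replicate 1 of 129 with DMSO, where the endoderm list summed to 4414 CPM (402 and 401 in replicates 2 and 3).

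All 63 genes are annotated as protein coding in GENCODE M21 (GRCm38), on 12 chromosomes. Of these, 43 lie in 5 clusters, in which neighbouring genes start at most 1 Mb apart: 16 on chromosome 4 (145510759 to 147848366), 10 on chromosome 2 (175372436 to 178078476), 10 on chromosome 17 (21567008 to 22867134), 4 on chromosome 7 (42579783 to 43192109) and 3 on chromosome 8 (69209038 to 69749970). The coding sequences held 0 to 21 matches to the C2H2 finger pattern, with a median of 11. Zfp935, Zfp957 and Zfp972 held 0. The genes resemble one another and their unnamed neighbours: a median of 10.47% of the 75-base words of a member's transcripts also occurred in transcripts of another gene, and for 16 members the share was over 50%. In addition 27 members overlap another gene, 17 of them one on the opposite strand. How reads that match several genes were counted is not given in the sources used here, so values of the members with shared words or overlaps are uncertain.

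RefSeq (GRCm38.p6) gave promoter windows, from 250 bases before to 50 after a start, for 53 of the 63 genes, 60 windows in all. The windows of Zfp970, Zfp971 and Zfp972, neighbours in the chromosome 2 cluster, are shown because these genes had the largest log2 differences in favour of B6J in both media. Zfp961, Zfp956 and Zfp964 responded to the inhibitor in both backgrounds, and of these the windows of Zfp961 and Zfp956 are shown. Each is given 5′ to 3′ on the gene's strand for the 250 bases before the start, with the letters CCAAT and their reverse complement ATTGG in capitals. The positions are chr2:177464492-177464741 (plus strand) for Zfp970, chr2:178023034-178023283 (plus) for Zfp971, chr2:177925651-177925900 (minus) for Zfp972, chr8:71950816-71951065 (plus) for Zfp961 and chr6:47953140-47953389 (plus) for Zfp956.
Zfp970: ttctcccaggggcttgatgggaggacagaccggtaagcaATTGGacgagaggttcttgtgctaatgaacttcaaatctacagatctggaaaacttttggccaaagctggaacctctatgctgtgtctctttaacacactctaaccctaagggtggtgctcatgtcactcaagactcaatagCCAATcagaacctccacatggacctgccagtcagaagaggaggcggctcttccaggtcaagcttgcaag
Zfp971: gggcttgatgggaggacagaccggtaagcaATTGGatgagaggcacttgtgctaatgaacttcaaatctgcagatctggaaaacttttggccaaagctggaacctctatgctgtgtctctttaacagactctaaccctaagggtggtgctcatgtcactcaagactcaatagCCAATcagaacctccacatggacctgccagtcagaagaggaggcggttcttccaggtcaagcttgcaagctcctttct
Zfp972: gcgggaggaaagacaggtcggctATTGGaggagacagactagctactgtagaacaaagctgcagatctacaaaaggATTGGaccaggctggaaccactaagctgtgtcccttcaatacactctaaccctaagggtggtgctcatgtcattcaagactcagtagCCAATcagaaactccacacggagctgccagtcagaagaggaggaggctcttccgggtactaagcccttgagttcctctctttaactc
Zfp961: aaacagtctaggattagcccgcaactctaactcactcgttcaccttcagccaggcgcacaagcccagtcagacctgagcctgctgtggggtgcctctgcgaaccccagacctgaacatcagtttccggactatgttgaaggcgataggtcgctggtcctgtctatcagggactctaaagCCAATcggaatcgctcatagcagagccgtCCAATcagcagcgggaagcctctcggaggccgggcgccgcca
Zfp956: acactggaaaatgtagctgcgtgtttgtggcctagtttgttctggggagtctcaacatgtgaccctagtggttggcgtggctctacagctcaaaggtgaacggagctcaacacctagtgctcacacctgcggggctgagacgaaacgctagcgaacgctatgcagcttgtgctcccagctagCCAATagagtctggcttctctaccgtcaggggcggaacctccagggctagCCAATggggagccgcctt

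The windows of Zfp970 and Zfp971 were identical at 284 of 291 aligned bases (97.6%), and each matched that of Zfp972 less closely, at 80.7% and 80.6%. The longest run of letters common to all of them had 30 bases, actctaaccctaagggtggtgctcatgtca, and was found in 33 windows of 29 genes, every one on chromosome 2; 9 of those genes are members. A CCAAT in either orientation was found in 46 of the 60 member windows (76.7%), in 42.9% of the 310 windows of the other Zfp genes and in 37.4% of all 32851 windows. The median number of CG pairs in a window was 7.5 for the members, 16 for the other Zfp genes and 7 for all windows. These matches describe letters only and say nothing of a factor's binding.

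Of the 63 genes 55 had enough counts to be tested among 16627 genes. Zfp935, Zfp965 and Zfp967 were listed at 0 in all 12 libraries. Zfp957, Zfp966, Zfp968, Zfp969 and Zfp973 had 1 to 19 counts over all libraries and were not tested; 4 of these 5, all but Zfp957, lie in the chromosome 2 cluster. Over the 55 tested genes the level per kilobase of exon ranged from 0.207 to 14.2 CPM, with a median of 1.42. On that scale the mean over all 12 libraries was highest for Zfp961 (14.2), followed by Zfp979 (10.9), Zfp978 (9.04) and Zfp990 (7.67), but the order depended on the background. In 129 Zfp961 led (15.5 with DMSO and 21.8 with the inhibitor), then Zfp990 (10.3 and 17.1). In B6J Zfp979 (11.96 and 13.7) and Zfp978 (10.8 and 15.6) had higher means than Zfp961 (7.16 and 12.4), and Zfp990 was at 0.788 with DMSO. In the heat map the libraries differ within each group for most genes, and the rows of Zfp970, Zfp971, Zfp972 and Zfp990 divide by background.

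**Figure D1:**
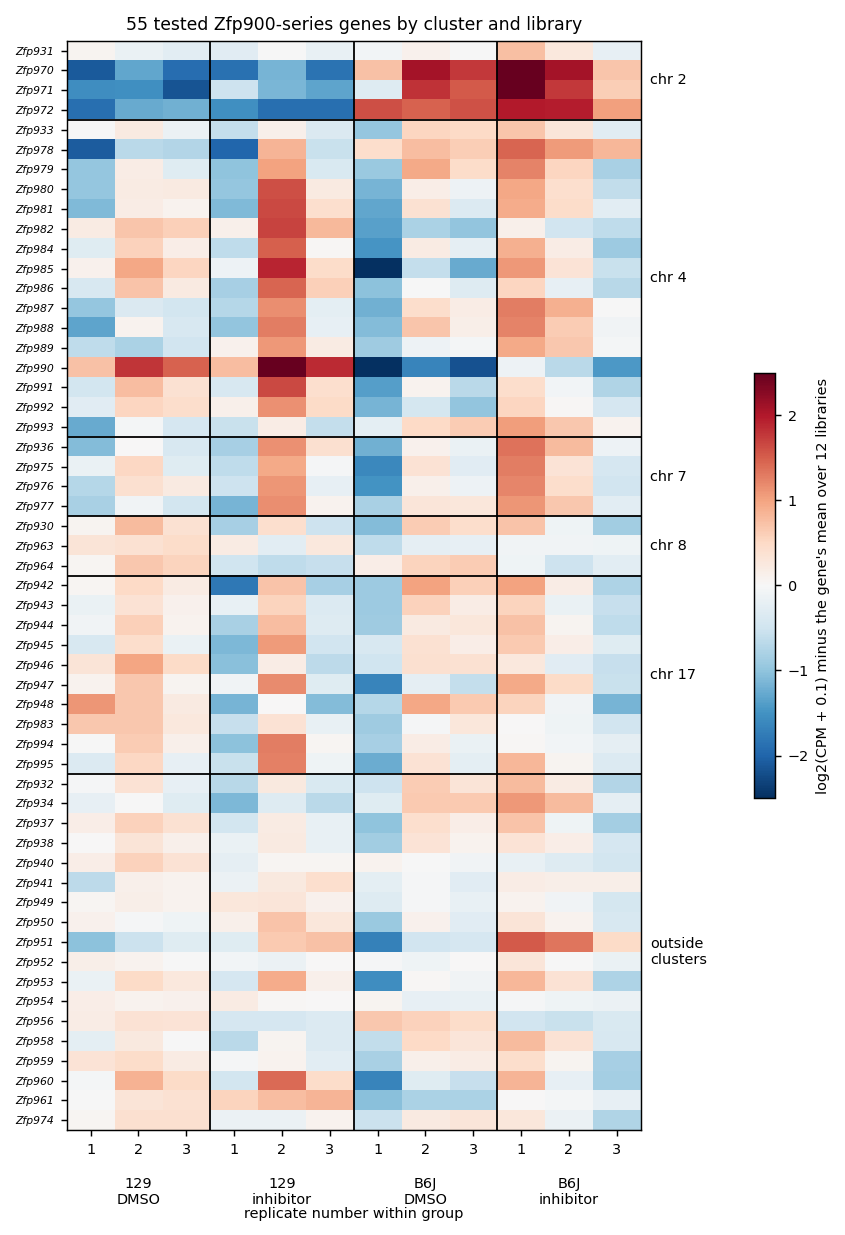
Heat map of the 55 tested genes (rows, grouped by genome cluster) in the 12 libraries (columns, grouped by background and treatment). Colour gives log2(CPM + 0.1) minus the gene's mean over the 12 libraries. Most genes are lowest in replicate 1 of the first 3 groups and in replicate 3 of B6J with the inhibitor, and the rows of Zfp970, Zfp971 and Zfp972 are blue in 129 and mostly red in B6J.

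The difference between the backgrounds was largest in the chromosome 2 cluster. Zfp970, Zfp971 and Zfp972 had more RNA counted in B6J than in 129 in either medium, with fitted levels 12.01, 19.16 and 24.85 times higher with DMSO (Zfp971, Zfp970 and Zfp972). A gene is called here at an edgeR quasi-likelihood adjusted p under 0.05. With DMSO 3 members were called higher in B6J and 5 lower (14.5% of the 55), while over all genes tested 10.4% were higher and 10.5% lower, 20.9% in all. With the inhibitor 4 members were higher and 3 lower (12.7%), while of all genes 8.9% were higher and 9.47% lower, 18.4% in all. The members' shares were not above the background. Their spread within groups was wider than that of all genes, as given further on, which makes a call less likely. Among the other Zfp genes 14.1% and 17.5% were called.

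Zfp970 (chromosome 2, 177464733 to 177478129) stood at 0.0549, 0.168 and 0.0780 CPM in 129 with DMSO and at 0.0828, 0.196 and 0.0848 in 129 with the inhibitor. In B6J it stood at 1.01, 2.71 and 2.16 CPM with DMSO and at 4.59, 2.699 and 0.967 with the inhibitor. Every B6J library was thus above every 129 library, and the log2 difference was 4.26 (SE 0.678, adjusted p = 0.00105) with DMSO and 4.51 (SE 0.664, adjusted p = 0.000656) with the inhibitor. Zfp971 (178023284 to 178034022) stood at 0.192, 0.196 and 0.0936 CPM in 129 with DMSO, 0.497, 0.287 and 0.242 in 129 with the inhibitor, 0.592, 2.90 and 2.40 in B6J with DMSO and 6.01, 2.83 and 1.21 in B6J with the inhibitor. Backgrounds did not overlap in either medium. The log2 difference was 3.59 (SE 0.728, adjusted p = 0.00474) with DMSO, a call that limma-voom did not make (adjusted p = 0.0797), and 3.29 (SE 0.676, adjusted p = 0.00532) with the inhibitor.

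Zfp972 (177903340 to 177925613), whose coding model holds 0 finger matches, had 0, 4 and 4 counts in 129 with DMSO and 2, 0 and 0 in 129 with the inhibitor. It had 82, 78 and 76 counts in B6J with DMSO and 108, 111 and 62 in B6J with the inhibitor. Relative to the library totals the B6J level was 26 times that of 129 with DMSO (95% counting interval 13 to 60.9) and 121 times with the inhibitor (33.2 to 1010). These intervals cover counting error only. The adjusted p was 0.000435 and 0.000123. Of the transcript words of Zfp970, Zfp971 and Zfp972, 30.35%, 32.8% and 43.4% also occurred in other genes, mostly unnamed neighbours. Gm14327, on the opposite strand over Zfp972, was likewise higher in B6J (0.189 CPM with DMSO and 0.442 with the inhibitor, against 0 and 0.0262 in 129, adjusted p = 0.00226 and 0.00204), and since the strand setting of the counting is not given in the sources used here, reads of the 2 genes may be mixed. Zfp931, at the end of the same cluster, was at 3.99 to 5.57 CPM by group mean and was not called between the backgrounds.

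On chromosome 4 the called differences ran the other way: 3 of the 16 members were lower in B6J with DMSO and 2 with the inhibitor, and 0 were higher by edgeR. In either direction 6 and 4 of the 16 had an unadjusted p under 0.05, and Zfp978 was called higher in B6J by DESeq2 with DMSO and by limma-voom in both media. Zfp990 (chromosome 4, 145510759 to 145539188, 13 finger matches) stood at 22.8, 47.3 and 38.1 CPM in 129 with DMSO and at 1.07, 4.27 and 2.93 in B6J with DMSO. With the inhibitor it stood at 23.3, 107 and 49.8 CPM in 129 and 12.4, 8.45 and 4.98 in B6J. The highest B6J library lay below the lowest 129 library in both media, with log2 differences of -3.71 (SE 0.629, adjusted p = 0.00159) and -2.80 (SE 0.594, adjusted p = 0.00647).

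Zfp982 (147492417 to 147513486), the gene reported to act on pluripotency genes, stood at 4.91, 6.90 and 6.41 CPM in 129 and 1.60, 2.39 and 2.08 in B6J with DMSO. With the inhibitor it stood at 4.64, 14.0 and 7.52 CPM in 129 and 4.61, 2.99 and 2.7 in B6J, where the lowest 129 and the highest B6J library nearly met. The log2 difference was -1.59 (SE 0.361, adjusted p = 0.00909) with DMSO. With the inhibitor it was -1.34 (SE 0.354, adjusted p = 0.0203), and that call ended without replicate 2 of 129 with the inhibitor (-0.839, adjusted p = 0.0855), replicate 2 of B6J with the inhibitor (-1.27, adjusted p = 0.0824) or replicate 3 of B6J with the inhibitor (-1.21, adjusted p = 0.0755), or in a fit of only the 2 groups (adjusted p = 0.0585). Zfp992, with 34.52% of its transcript words shared, was the third member called on chromosome 4. It averaged 20.3 ± 5.71 CPM in 129 and 9.39 ± 2.54 in B6J with DMSO (SD, n = 3; log2 difference -1.11, adjusted p = 0.031). That call ended with limma-voom (adjusted p = 0.0517), without replicate 2 or 3 of 129 with DMSO (0.0989 and 0.0853) and without replicate 1 or 3 of B6J with DMSO (0.109 and 0.0995).

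Outside the 2 large clusters, Zfp961 (chromosome 8, 71951038 to 71993792) had the highest mean CPM of the members in 129 and was lower in B6J. It stood at 56.5, 71.0 and 74.5 CPM in 129 with DMSO, 83.9, 97.6 and 102 in 129 with the inhibitor, 27.6, 32.8 and 32.7 in B6J with DMSO and 57.7, 54.7 and 49.4 in B6J with the inhibitor. No B6J library reached a 129 library of the same medium, and the spread within groups was small. The log2 difference was -1.12 (SE 0.121, adjusted p = 7e-05) with DMSO and -0.81 (SE 0.12, adjusted p = 0.000665) with the inhibitor. Of its transcript words 0.3% occurred elsewhere, though the gene overlaps Gm45694 on the same strand and Cyp4f18 on the opposite strand.

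Zfp963 of the chromosome 8 cluster averaged 2.48 ± 0.130 CPM in 129 and 1.45 ± 0.243 in B6J with DMSO (SD, n = 3; log2 difference -0.77, adjusted p = 0.0125). Of its transcript words 37.74% occurred elsewhere, mostly in Gm20422, which overlaps it on the same strand. Zfp934, with 17.2% of its transcript words shared, was higher in B6J with the inhibitor, at 3.94, 3.19 and 1.52 CPM against 0.773, 1.42 and 1.09 in 129. Its log2 difference was 1.40 (SE 0.372, adjusted p = 0.0215), and the call ended without replicate 1 (adjusted p = 0.0836) or replicate 3 (0.073) of 129, or without replicate 1 (0.0948) or replicate 2 (0.0757) of B6J, all with the inhibitor, and with limma-voom (0.0546). If the reads were matched to the C57BL/6J reference, which the mm10 and GRCm38 builds represent, fewer 129 reads matching it and less RNA in 129 cannot be told apart for genes higher in B6J.

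**Figure D2:**
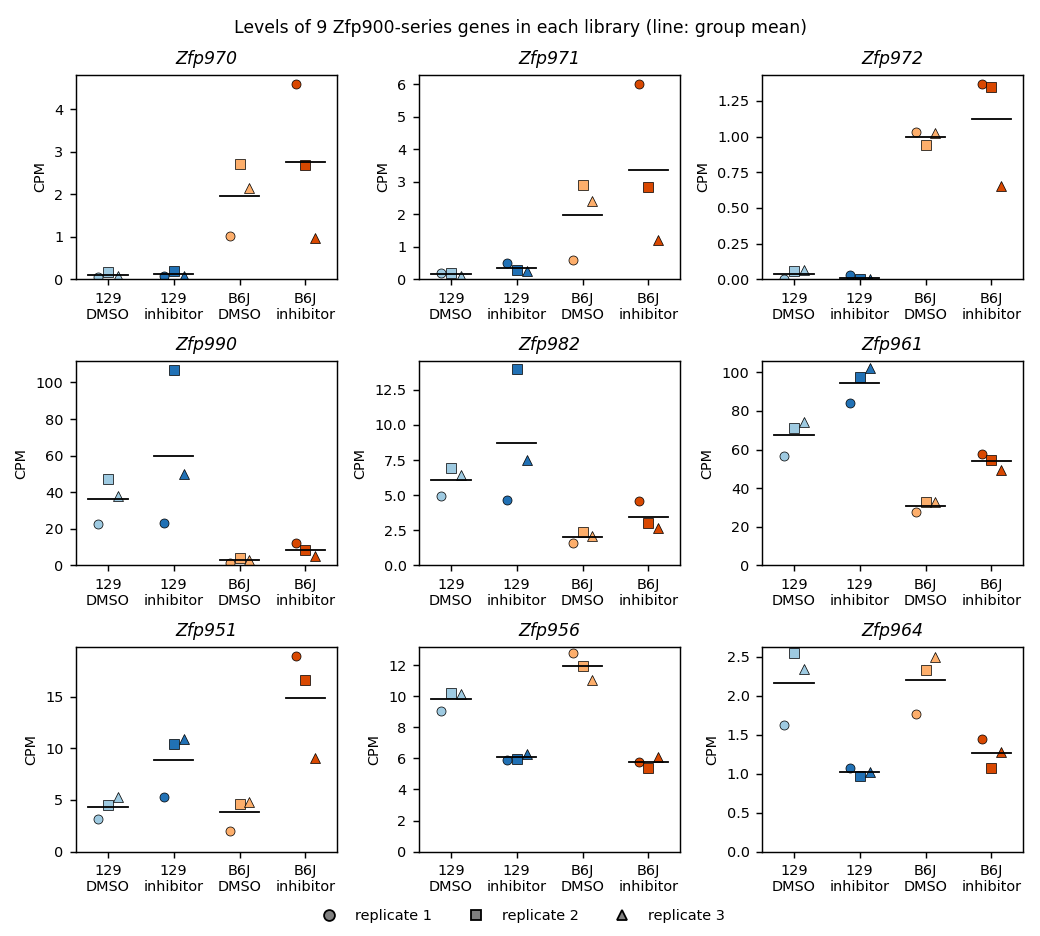
Level in CPM of 9 genes in each of the 12 libraries (points; marker shape gives the replicate number, the line is the group mean of 3 libraries). Zfp970, Zfp971 and Zfp972 are near 0 in 129 and above it in every B6J library, Zfp990, Zfp982 and Zfp961 are lower in B6J, Zfp951 is higher and Zfp956 and Zfp964 are lower with the inhibitor.

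The inhibitor moved few of the members past the test. In 129, 2 rose (Zfp961 and Zfp989) and 4 fell (Zfp964, Zfp946, Zfp956 and Zfp940), which is 10.9% of the 55 tested. Of all genes tested 17.4% rose and 18.2% fell, 35.7% in all, and 27.1% of the other Zfp genes were called. In B6J, 3 rose (Zfp951, Zfp992 and Zfp961) and 2 fell (Zfp956 and Zfp964), which is 9.09%. Of all genes 14.6% rose and 16.5% fell there, 31.1% in all, and again 27.1% of the other Zfp genes were called. The members' share was below the background in both. Their log2 levels also varied more within groups (median SD 0.652, all genes tested 0.2). A difference of a given size is therefore harder to call for them, and a lower share need not mean smaller responses. The median log2 difference over the 55 genes was 0.13 in 129 and 0.34 in B6J, beside -0.01 and 0.00 over all genes tested. The median in 129 was -0.34 without replicate 2 and 0.45 without replicate 1 of 129 with the inhibitor, so 1 library set its sign. In B6J it stayed above 0, from 0.05 to 0.56, when each library was left out in turn.

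Zfp956, Zfp964 and Zfp961 were called in both backgrounds, in the same direction in each. Zfp956 (chromosome 6, 47953390 to 47965300) fell from 9.04, 10.2 and 10.1 CPM with DMSO to 5.91, 5.95 and 6.31 with the inhibitor in 129. In B6J it fell from 12.8, 11.96 and 11.04 to 5.73, 5.40 and 6.12 CPM. The groups were far apart, and the spread of its log2 level within groups (SD 0.0891) was the lowest of all 55 genes. The log2 differences were -0.69 (SE 0.105, adjusted p = 0.00042) in 129 and -1.05 (SE 0.105, adjusted p = 2.38e-05) in B6J. Zfp956 overlaps Zfp783 on the same strand, and 4.86% of its transcript words are shared.

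Zfp964 (chromosome 8, 69654479 to 69666982) stood at 1.62, 2.55 and 2.34 CPM in 129 with DMSO and 1.08, 0.966 and 1.02 with the inhibitor. In B6J it stood at 1.76, 2.33 and 2.496 CPM with DMSO and 1.44, 1.07 and 1.28 with the inhibitor. Levels with the inhibitor lay below those with DMSO without overlap. The log2 difference was -1.09 (SE 0.218, adjusted p = 0.00266) in 129 and -0.80 (SE 0.214, adjusted p = 0.015) in B6J. The B6J call ended without replicate 2 of either B6J group (adjusted p = 0.0502 for DMSO, 0.0764 for the inhibitor) or replicate 3 of B6J with DMSO (0.0616). With the level of the fibroblast markers as a covariate the adjusted p was 0.052 in 129 and 0.103 in B6J. Those markers themselves rose with the inhibitor, so this fit cannot fully separate them from the treatment.

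Zfp961, which was also lower in B6J, rose with the inhibitor by a log2 difference of 0.49 (SE 0.119, adjusted p = 0.00793) in 129 and 0.80 (SE 0.12, adjusted p = 0.000425) in B6J. All inhibitor libraries were above all DMSO libraries of the same background. Zfp951 (chromosome 5, 104813169 to 104860070), whose transcript words occur in no other gene, rose in B6J from 1.96, 4.62 and 4.84 CPM to 18.96, 16.6 and 9.07. Its log2 difference of 1.97 (SE 0.397, adjusted p = 0.00303) was the largest of the called responses. In 129 it stood at 3.17, 4.48 and 5.27 CPM with DMSO and 5.30, 10.4 and 10.9 with the inhibitor, a log2 difference of 1.04 that did not pass the test (adjusted p = 0.0565). With the replicate numbers as a block within 129 it passed (1.00, adjusted p = 0.0403), and so it did with DESeq2 (adjusted p = 0.0173) and in a fit of only the 2 groups (0.0456). It did not pass with limma-voom (0.0971) or with a block over all 12 libraries (0.0627). Without replicate 3 of 129 with the inhibitor the adjusted p was 0.171, and most fits that left out 1 library also gave no call.

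The remaining calls rested on less. Zfp989 in 129 stood at 0.590, 0.518 and 0.671 CPM with DMSO and 1.06, 2.17 and 1.14 with the inhibitor (log2 difference 1.29, SE 0.374, adjusted p = 0.0194). Its call ended without replicate 2 of 129 with DMSO (adjusted p = 0.0664) or with the inhibitor (0.0867), and 54.8% of its words are shared. Zfp946 in 129 stood at 5.83, 9.26 and 6.51 CPM with DMSO and 2.18, 5.27 and 2.91 with the inhibitor (log2 difference -1.06, SE 0.36, adjusted p = 0.0385). Groups did not overlap for either gene.

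The Zfp946 call ended without replicate 1 (adjusted p = 0.132) or 3 (0.123) of 129 with the inhibitor, replicate 2 (0.134) or 3 (0.0601) of 129 with DMSO, or replicate 2 of B6J with the inhibitor (0.0563), and in a fit of only the 2 groups (0.0581). Zfp940 in 129 stood at 15.5, 20.6 and 17.6 CPM with DMSO and 11.8, 14.3 and 14.2 with the inhibitor (log2 difference -0.42, SE 0.126, adjusted p = 0.0241). Its adjusted p rose to 0.109 and 0.0519 when replicates 2 and 3 of 129 with DMSO were left out in turn, and to 0.0806 for replicate 1 of 129 with the inhibitor. A GC correction gave 0.0613 and a fit of only the 2 groups 0.0591. With the fibroblast covariate, which itself rose with the inhibitor, the log2 difference was -0.51 for Zfp946 and -0.13 for Zfp940 (adjusted p = 0.363 and 0.444).

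Zfp992 in B6J stood at 7.45, 12.3 and 8.45 CPM with DMSO and 24.3, 17.2 and 12.5 with the inhibitor (log2 difference 0.94, SE 0.323, adjusted p = 0.0457). The lowest inhibitor library was just above the highest DMSO library. The call ended without any of 7 libraries: replicates 2 and 3 of 129 with DMSO (adjusted p = 0.0511 and 0.0564), replicate 3 of 129 with the inhibitor (0.0613), replicates 1 and 3 of B6J with DMSO (0.14 and 0.133) and replicates 1 and 2 of B6J with the inhibitor (0.166 and 0.0902). It also ended with limma-voom (0.0745).

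On chromosome 4, 16 of 16 members had a positive log2 difference in B6J and 15 in 129, with medians of 0.65 and 0.50, but 1 passed the test in each. The pattern in 129 rested on replicate 2 with the inhibitor: without it 6 of the 16 were positive and the median was -0.10. In B6J the median stayed above 0 when any 1 library was left out and was lowest, 0.33 with 13 positive, without replicate 1 with the inhibitor. On chromosome 7 the 4 members had medians of 0.90 in B6J and 0.52 in 129. None passed in the main edgeR fit, where 0 had an unadjusted p under 0.05, nor by DESeq2 or limma-voom. With the GC correction, the fibroblast covariate or without the 4 libraries that stood apart, Zfp936 was called in both backgrounds. Without replicate 2 of 129 with the inhibitor the chromosome 7 median in 129 was -0.17, and without replicate 1 of B6J with the inhibitor that in B6J was 0.38. On chromosome 17 the medians of the 10 members were 0.05 and -0.13, and Zfp946 alone passed in the main edgeR fit. Zfp948 fell in 129 from a mean of 15.04 to 5.82 CPM without overlap (log2 difference -1.37, adjusted p = 0.0546). It was called there by DESeq2 and in a fit of only the 2 groups, but not by limma-voom.

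**Figure D3:**
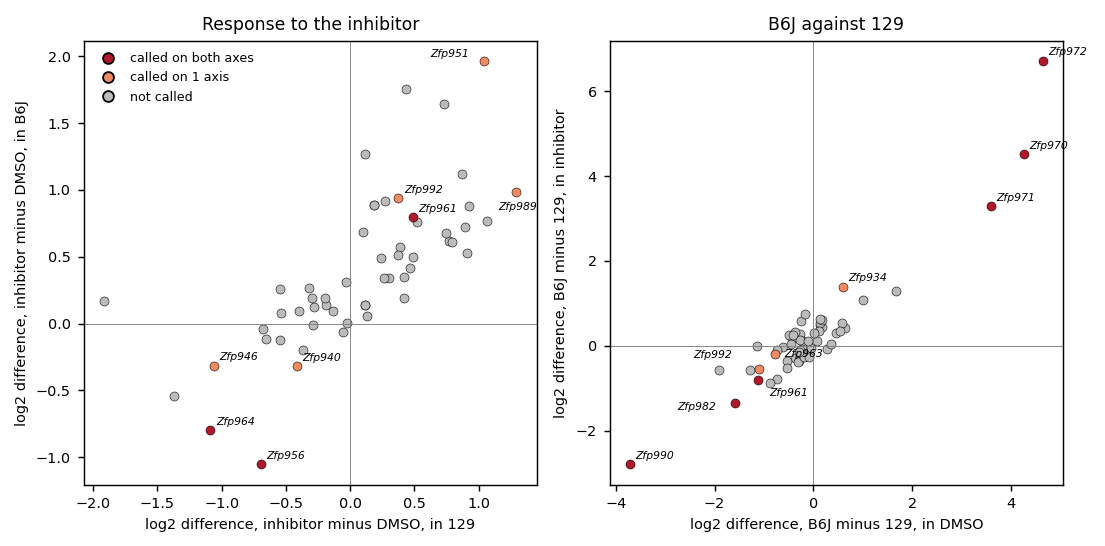
Log2 differences of the 55 tested genes: response to the inhibitor in 129 (x axis) and in B6J (y axis) on the left, and difference between B6J and 129 with DMSO (x) and with the inhibitor (y) on the right. Each point is 1 gene, dark red where called on both axes and orange where called on 1; Zfp961, Zfp964 and Zfp956 are called on both axes on the left, and 6 genes on the right.

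Whether the response differed between the backgrounds was tested as an interaction. By edgeR 0 of the 55 genes were called. Of all genes 1.48% were called, 0.71% with a response higher in B6J and 0.77% lower. Among the members 2 had an unadjusted p under 0.05, and DESeq2 and limma-voom also called 0. Those 2 were Zfp956 (B6J minus 129 log2 response -0.36, adjusted p = 0.323) and Zfp963 (0.59, adjusted p = 0.379). Zfp951, Zfp961 and Zfp972 were called without the 4 libraries that stood apart, when 12.3% of all genes were called.

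Counts of called members depended on those libraries. Without them 11 members rose and 7 fell in 129, and 12 rose and 2 fell in B6J, while 51.2% and 45.2% of all genes were called. Between the backgrounds 5 were higher and 9 lower in B6J with DMSO, and 10 higher and 4 lower with the inhibitor (38.7% and 34.3% of all genes). Of the 23 named differences given in full above, all remained called in that fit, for example Zfp970 with log2 differences of 4.26 and 4.71 and Zfp990 with -3.56 and -2.92. When replicate numbers formed a block within 129, whose same-numbered libraries deviated together, 4 members rose and 5 fell in 129, and 8 rose and 3 fell in B6J, while 41.3% and 36.5% of all genes were called in either direction.

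Within a group the members rose and fell together between libraries. The SD of a gene's log2 level within groups had a median of 0.652 over the 55 members, 0.197 over the 291 other Zfp genes tested and 0.2 over all genes tested. Over 2581 genes of a similar level it was 0.234. Over genes similarly poor in G and C, the lowest 10% described further on, it was 0.503 for the 81 other Zfp genes and 0.299 for the 1327 genes without a Zfp, Gm or Rik name. The spread was widest in the clusters on chromosomes 4 (0.84), 7 (0.805), 2 (0.728) and 17 (0.7), and lower on chromosome 8 (0.244) and outside the clusters (0.394). Zfp942 had the widest spread (0.951). Zfp956, Zfp954, Zfp952 and Zfp940 had the narrowest, 0.0891 to 0.152.

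The same library was lowest for most members. It was replicate 1 for 41 of 55 members in 129 with DMSO, 43 in 129 with the inhibitor and 49 in B6J with DMSO, and replicate 3 for 52 in B6J with the inhibitor. These are the 4 libraries that stood apart from their groups over all genes. Highest were replicate 2 in the first 3 groups, for 42, 44 and 40 members, and replicate 1 of B6J with the inhibitor, for 54.

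The summed level of the 63 genes was 358, 534 and 454 CPM in 129 with DMSO, 339, 790 and 475 in 129 with the inhibitor, 233, 455 and 379 in B6J with DMSO and 644, 464 and 304 in B6J with the inhibitor. The 4 groups overlapped. Of the clusters, that on chromosome 4 gave the largest part, with 104 to 419 CPM in 129 and 63.3 to 269.7 CPM in B6J, while the members outside clusters summed to 171 to 234 CPM in 129 and 122 to 213 in B6J. Zfp979, its member with the highest mean over all libraries and in B6J (in 129 it was Zfp990), stood at 19.5, 43.8 and 31.4 CPM in 129 with DMSO, 19.2, 77.7 and 29.6 in 129 with the inhibitor, 20.2, 74.4 and 53.0 in B6J with DMSO and 91.0, 55.8 and 21.8 in B6J with the inhibitor. Its groups overlapped in every comparison.

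Zfp984 of the same cluster stood at 11.1, 20.6 and 15.3 CPM in 129 with DMSO, 8.73, 38.9 and 13.9 in 129 with the inhibitor, 4.87, 15.8 and 11.6 in B6J with DMSO and 25.3, 15.6 and 7.28 in B6J with the inhibitor. Zfp932, the known retrovirus repressor, stood at 7.40, 9.70 and 6.49, at 4.61, 8.98 and 5.74, at 5.22, 11.8 and 9.46 and at 13.1, 8.68 and 4.51 CPM in the same order. Neither was called in any comparison. Both were highest in replicate 2 of the first 3 groups and in replicate 1 of B6J with the inhibitor.

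Several measures moved with this pattern. Members were poor in G and C: their median transcript GC content was 38.5% (33.2 to 54%) against 49.9% over all genes tested, and 45 of the 55 were among the 10% of genes lowest in GC content (at most 41.5%). The 1327 genes of those 10% without a Zfp, Gm or Rik name deviated the same way in replicate 1 of B6J with DMSO (median -0.293 log2, members -0.729) and replicate 3 of B6J with the inhibitor (-0.205, members -0.645). In replicate 2 of 129 with the inhibitor they deviated by 0.0216, and the members by 0.678. Low-GC genes among the other Zfp genes deviated by -0.694, -0.604 and 0.277 in these libraries. After a correction for GC content the members' median SD was 0.473, that of all genes 0.192.

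The mean log2 level of the fibroblast markers was highest in the library that was lowest for most members in 3 of the 4 groups: 6.71 in replicate 1 of 129 with DMSO (5.56 and 5.51 in the others), 7.26 in replicate 1 of 129 with the inhibitor (6.62 and 6.69) and 7.19 in replicate 3 of B6J with the inhibitor (6.61 and 6.96). In B6J with DMSO it was lowest in that library, 6.05 against 6.32 and 6.10. Primitive endoderm markers averaged 5.46 in replicate 1 of 129 with DMSO and 2.12 and 2.09 in the others. Markers of 2-cell-like cells were lowest in the library lowest for most members in all 4 groups. They averaged -2.25 (0.221 and 0.337 in the others) in 129 with DMSO and -2.31 (-1.01 and -0.962) with the inhibitor. The gaps were small in B6J, with -3.83 (-3.4 and -3.65) with DMSO and -1.46 (-1.36 and -1.36) with the inhibitor. The part of GC content, fibroblast RNA, endoderm RNA and 2-cell-like RNA in the members' spread was not tested. In bulk RNA fewer cells of a type and less RNA per cell cannot be told apart.

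**Figure D4:**
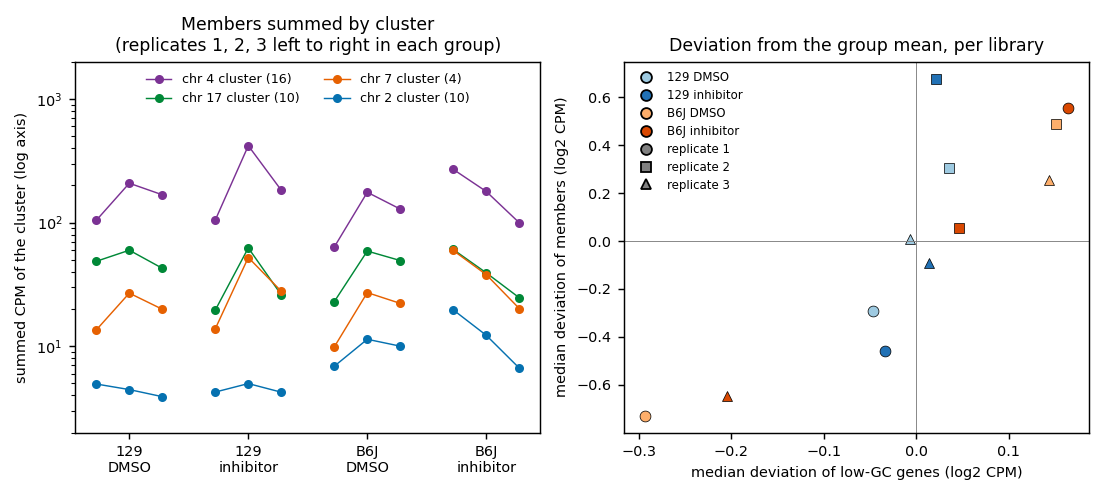
Left: summed CPM of the members of 4 clusters (log axis) in replicates 1, 2 and 3 of each group; the lines join libraries of a group and stand for no order. Right: median deviation from the group mean (log2 CPM) of the members (y axis) and of low-GC genes (x axis) in each of the 12 libraries, where B6J with DMSO replicate 1 lies lowest at -0.729 and 129 with the inhibitor replicate 2 highest at 0.678.

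The genes that work with KRAB zinc finger proteins were abundant and differed less between libraries of a group, with a median SD of 0.135 over a list of 27 genes. The range reached 0.846, and some of these genes varied widely: Mphosph8 and Resf1 stood at 53.06 ± 32.4 and 82.9 ± 52.5 CPM in 129 with the inhibitor (SD, n = 3). The mean log2 level of the list ordered the libraries of each group as the members' summed level did. In replicates 1, 2 and 3 it was 6.97, 7.2 and 7.13 in 129 with DMSO and 6.84, 7.3 and 7.13 with the inhibitor. For B6J it was 6.83, 7.23 and 7.2 with DMSO and 7.45, 7.25 and 6.98 with the inhibitor. In 129, 7 of the 27 rose and 3 fell with the inhibitor, and in B6J 8 rose and 2 fell, near the background shares of 35.7% and 31.1% of all genes. The medians over the list were -0.05 and 0.17. Trim28, the corepressor itself, rose from 1859 ± 132 to 2797 ± 23.6 CPM in 129 and from 1710 ± 133 to 2574 ± 170 in B6J (SD, n = 3; log2 differences 0.59 and 0.59, adjusted p = 0.000145 and 0.000143). Zfp57, which binds imprinted regions, rose by 0.99 and 1.02 (adjusted p = 1.65e-05 and 1.44e-05), and Uhrf1, the partner of the maintenance methyltransferase, by 0.55 and 0.61 (adjusted p = 0.000252 and 0.000124). Hdac2, a histone deacetylase, and Daxx, a histone H3.3 chaperone, also rose in both backgrounds.

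Pphln1, a subunit of the HUSH silencing complex, fell from 103 ± 4.55 to 43.02 ± 3.57 CPM in 129 and from 95.7 ± 10.5 to 51.8 ± 0.915 in B6J (adjusted p = 2.12e-06 and 2.53e-05). Setdb1, the methyltransferase recruited by TRIM28, rose in 129 from 163 ± 7.08 to 241 ± 19.1 CPM (adjusted p = 7.33e-05) and fell in B6J from 212 ± 3.47 to 181 ± 4.57 (adjusted p = 0.0203). The responses differed by -0.80 on the log2 scale (B6J minus 129, adjusted p = 0.00264). Among the genes called in 1 background only were Atf7ip (higher) and Morc2a (lower) in 129, and Morc3, Chd3 and Hdac1 (higher) in B6J; the difference between the responses was not called for these. Between the backgrounds 2 genes of the list were called with DMSO, Setdb1 and Hdac1, both higher in B6J (7.41% of the list, 20.9% of all genes), and 5 with the inhibitor (18.5% of the list, 18.4% of all genes). The count of 5 fell to 2 or 3 when any of 9 of the libraries was left out. With the inhibitor Hdac1, Chd3, Morc2a and Uhrf1 were higher and Setdb1 lower in B6J.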

How the data were processed

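PolyA RNA of 12 libraries in 4 groups was sequenced on a NovaSeq after stranded library preparation, per the labels' protocols. The authors deposited whole-number read counts per gene in 1 table, without normalization. Per the submitters' processing notes the tools were HTSeq 0.6.1p1, DESeq, SAMtools and STAR 2.7.10 and the builds GRCm38 and mm10, in no stated role. No source used here gives the strand setting or how multi-mapping reads were handled. Per library, 70.09 to 73.37% of values from 1 to 20 were even, against 52.06 to 55.17% of those from 101 to 1000, so low values are often multiples of 2.

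The members and lists were chosen with earlier results of these data known. Genes passing filterByExpr (min.count 10, min.total.count 15) were tested with edgeR 4.0.16 (R 4.3.3): TMM scaling, 1 quasi-likelihood fit of 4 group means over 12 libraries, 5 contrasts, Benjamini-Hochberg adjustment over 16627 genes. Adjusted p-values come from edgeR where no other tool is given. Alternatives used limma 3.58.1 and DESeq2 1.42.0. Log2 levels use a prior count of 2. Ratios of low counts carry exact 95% intervals. The script was tested on simulated data. Positions (1-based) and transcript words come from GENCODE M21, promoters from RefSeq.

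Same-numbered libraries of 129 with DMSO and with the inhibitor deviated together (r = 0.442, 0.295 and 0.222 over genes). The labels state no pairing, and replicate 1 stood apart in both of these groups. Whether the numbers pair the 129 libraries was not tested. In B6J same-numbered libraries did not deviate together (-0.188, 0.0883 and -0.17). Values in every library are given for up to 6 called members per contrast, those of the largest difference whose groups do not overlap and whose higher group averages 0.5 CPM or more, for the 5 most abundant members, and for Zfp932 and Zfp982.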

Additional observations from a re-analysis of the deposited data

Results flagged for a closer look

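Setdb1, the histone methyltransferase that TRIM28 recruits for KRAB zinc finger proteins, responded to the inhibitor differently in the 2 backgrounds. Its response in B6J minus that in 129 was -0.799 on the log2 scale (edgeR adjusted p = 0.00264), with a rise in 129 and a fall in B6J. It was the 1 gene of the 27 in the KRAB silencing list for which this difference was called, and 0 of the 55 tested members were. Of all genes tested 1.48% were called, and such small counts do not stand out from that share.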

How the results depend on the processing

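All 23 named differences kept their direction in each of the 25 alternatives run on each, and 38 of those values no longer passed the test. Counts of called members moved more. The fibroblast markers rose with the inhibitor, so a fit with them as a covariate cannot fully separate them from the treatment. With the fibroblast covariate 12 members rose and 1 fell in 129 (median log2 difference 0.783), and 13 rose and 1 fell in B6J. With DMSO 6 were higher and 6 lower in B6J. Of all genes 33.3%, 33.2% and 30.1% were called in either direction. In that fit 7 and 8 genes of the KRAB silencing list differed between backgrounds with DMSO and with the inhibitor. Alternatives chosen after seeing the data were the following. Without the 4 libraries that stood apart 11 rose and 7 fell in 129, 12 rose in B6J, 5 were higher and 9 lower in B6J with DMSO, 10 higher with the inhibitor and 3 called higher in the interaction; of the KRAB list 10 and 12 differed between backgrounds, of the other Zfp genes 89 and 93, and 136 responded in 129. A GC correction gave 5 rising and 4 falling in 129, 8 rising and 2 falling in B6J, and 6 higher and 6 lower in B6J with DMSO. Of all genes 37.8%, 33.9% and 22.3% were called in either direction. It also gave 4 of the KRAB list between backgrounds with DMSO. The replicate block within 129 gave 4, 8 and, of the KRAB list, 5. Block and GC correction together gave 13 rising and 5 falling in 129, and 11 rising and 3 falling in B6J. In B6J 6 were higher and 7 lower with DMSO, and 8 higher and 4 lower with the inhibitor. Of all genes 44.2%, 40.6%, 27.6% and 26% were called in either direction. Between backgrounds that fit gave 8 and 10 of the KRAB list, and 62 and 77 of the other Zfp genes. The other alternatives with moved counts were a block over all 12 libraries, DESeq2, fits of only the 2 groups and RLE size factors. The block gave 5 rising and 2 falling in B6J (of all genes 28.3% were called in either direction) and ended no call of the 23. DESeq2 gave 6 rising and 2 falling in B6J (35.6% of all genes) and 5 higher and 7 lower in B6J with DMSO (25.5%). Fits of only the 2 groups gave 6 rising and 3 falling in B6J (37.6%). DESeq2 and RLE size factors each gave 4 of the KRAB list. With 1 library left out, the share of all genes called in either direction also moved, from 27.1 to 39.3% in 129 and 22.2 to 37% in B6J. Leaving out 1 library at a time gave 1 to 4 members rising in 129 (1 without replicate 2 of either 129 group, 4 without replicate 1 of 129 with the inhibitor) and 2 to 5 falling (2 without that replicate 1 or without replicates 2 or 3 of 129 with DMSO). In B6J it gave 2 to 6 rising (6 without replicate 2 of 129 with the inhibitor; 5 without replicate 1 of either 129 group, replicate 2 of B6J with DMSO or replicate 3 of B6J with the inhibitor) and 1 to 3 falling (1 without replicate 2 of either B6J group or replicate 3 of B6J with DMSO). For the KRAB list it gave 6 (without replicate 2 of B6J with DMSO) to 13 responding in B6J, 2 to 5 (without replicate 1 of 129 with the inhibitor) between backgrounds with DMSO and 2 to 6 with the inhibitor (2 or 3 without any of 9 of the libraries). For the other Zfp genes it gave 49 to 91 responding in B6J and, between backgrounds, 26 to 46 with DMSO and 24 to 64 with the inhibitor; the lows came without replicate 2 of B6J with the inhibitor (49 and 24) and replicate 3 of B6J with DMSO (26). The causes were not tested. Levels under about 1 CPM, as in Zfp972, rest on few counts.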
